A study of Mus musculus with 8 samples.

Results

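The insulin receptor signalling chain is followed here through 10 genes, taken by symbol from the 16505 genes of the deposited expression table: Insr, Irs1, Irs2, Pik3r1, Akt1, Akt2, Foxo1, Tbc1d4, Ptpn1 and Grb14. All 10 were found and measured in every library. The tissue was epididymal white fat, the visceral depot beside the epididymis of male mice. There were 4 wild-type (WT) mice and 4 mice with the Mir181 double-knockout genotype (called the knockout, or DKO in the plots). Both groups were C57BL/6 mice that ate a high fat diet for 12 weeks, so no lean control enters any comparison. The labels give neither the ages, nor the litters, nor which Mir181 genes were deleted, so p-values measure only the spread between these 8 samples.

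Insulin binds the receptor kinase encoded by Insr, which phosphorylates the docking proteins IRS1 and IRS2. These recruit PI3-kinase, whose lipid product brings Akt to the membrane. Akt then inhibits AS160, the product of Tbc1d4, so that vesicles with the glucose transporter GLUT4 reach the cell surface. It also drives the transcription factor FOXO1 out of the nucleus. The phosphatase PTP1B (Ptpn1) and the adaptor GRB14 act on the receptor as brakes. In fat cells this chain promotes glucose uptake and restrains lipolysis, and it is weakened in obesity. All values here are transcript levels, and neither protein nor phosphorylation was measured.

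The deleted microRNAs belong to a family that pairs with messenger RNAs through a shared seed, bases 2 to 8 counted from the 5′ end. The mature sequences, from RefSeq on GRCm38.p6, are shown with the seed in capitals because this stretch is what the family members have in common. The a and b forms are each encoded at one place on chromosome 1 and another on chromosome 2, and the c and d forms lie on chromosome 8.
miR-181a-5p: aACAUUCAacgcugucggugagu
miR-181b-5p: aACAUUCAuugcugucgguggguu
miR-181c-5p: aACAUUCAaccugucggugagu
miR-181d-5p: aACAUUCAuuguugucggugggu

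The complement of this seed, TGAATGT, was looked for in the longest annotated 3′ UTR of each member (GENCODE M21, GRCm38), on the transcript strand. Insr, Irs2, Pik3r1 and Akt2 held 1 match each and Tbc1d4 held 2, while Irs1, Akt1, Foxo1, Ptpn1 and Grb14 held none. The matches are shown in capitals with the bases around them, since they are the 7-base seed matches of these transcripts.
Insr, chr8:3153282-3153288, minus strand: aaaaaaatgttaTGAATGTaaatttttttt
Irs2, chr8:10985470-10985476, minus strand: gcaagacaaagtTGAATGTaaattgatctc
Pik3r1, chr13:101680642-101680648, minus strand: gaatcagtcactTGAATGTgctcagtgcta
Akt2, chr7:27638998-27639004, plus strand: ggagccttaaagTGAATGTttgagttagag
Tbc1d4, chr14:101444112-101444118, minus strand: aacaaaaaaagaTGAATGTatttttccctg
Tbc1d4, chr14:101443024-101443030, minus strand: ctgttctccactTGAATGTcacaaggatca

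A match was therefore present in 5 of 10 members, against 18.5% of the 12851 tested genes with an annotated 3′ UTR. The 3′ UTRs of the members were longer than usual, with a median of 2716 bases against 1186. The site of Insr, that of Irs2 and the first one of Tbc1d4 are followed by an A, which lengthens the match to 8 bases. Such a match was held by 3 members and by 6.15% of tested genes. Over all tested genes the median difference between knockout and WT was 0.13 for those with TGAATGT and 0.19 for those without. A match describes the sequence and is not shown to be a working site.

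The libraries held between 3736881 and 76838584 reads, and values are log2 CPM, the log2 of a gene's reads scaled to a common library total. Behind the members stood between 43 reads (Irs2 in WT replicate 1) and 23442 reads (Akt2 in knockout replicate 2). Reads on ribosomal RNA made up over 1% of 4 libraries (WT replicates 1, 3, 4 and knockout replicate 1). These 4 held no more than 6790005 reads each, and the other libraries at least 15410736. Knockout replicates 2, 3 and 4 were the deepest of all. Reads on epididymis markers made up 1.63% of WT replicate 2 and 2.77% and 1.24% of knockout replicates 2 and 4, and no more than 0.00711% of the other 5 libraries. The Wilson 95% intervals reach no more than 0.00634 percentage points from these epididymis shares and cover counting error only. The table lists no miR-181 gene by name, and whether any family member was still made in the knockout was not measured.

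The knockout fat carried more transcript of the receptor, of both docking proteins, of the PI3-kinase regulatory subunit, of Akt2 and of both Akt substrates on the list, and less of Akt1 and of the phosphatase gene Ptpn1. Of the 10 members, 7 rose and 2 fell at an adjusted p under 0.05 in limma, and Grb14 did not pass. Over all 13797 tested genes 38.8% passed, 22.7% as higher and 16.1% as lower in the knockout. The 4 knockout values lay wholly above the 4 WT values for 7 members and wholly below them for 2, while 37.4% of all tested genes showed no overlap (20.8% above and 16.6% below). The median change of the members was 1.10 on the log2 scale, beside 0.18 for all tested genes. Centring each library on its median brought the latter to 0.03. All 9 calls were also made after that centring, after quantile normalization and without the 3 libraries rich in epididymis reads.

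**Figure D1:**
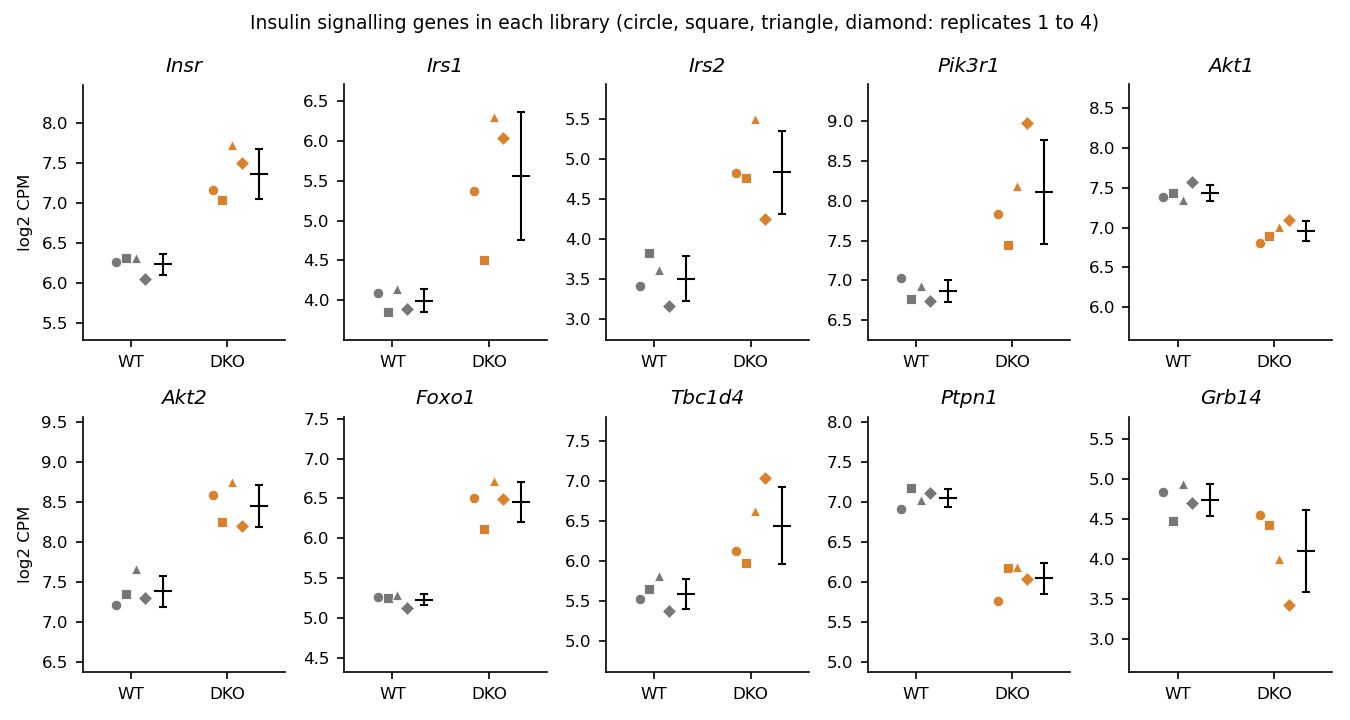
Log2 CPM of the 10 insulin signalling genes in each of the 4 WT (grey) and 4 knockout (DKO, orange) libraries, with the group mean and SD in black; every panel spans the same number of log2 units, and symbols mark replicates 1 to 4. The knockout points lie above all WT points in 7 panels and below them for Akt1 and Ptpn1, while those of Grb14 overlap.

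Marker transcripts of several cell types of the tissue differed between the groups. Of 15 adipocyte markers, 13 rose and 0 fell in limma (median 1.86), and of 20 pan-macrophage markers 0 rose and 19 fell (median −2.23). The counts of 0 held at an unadjusted p under 0.05 and with voom on whole reads. Summed CPM ranged from 16752 to 26409 in WT and from 31765 to 49995 in the knockout for the adipocyte list. For the macrophage list it ranged from 12640 to 14141 in WT and from 2442 to 3478 in the knockout. All 10 endothelial markers rose (median 1.06; summed CPM 486.7 to 639 in WT and 989 to 1341 in the knockout). Of 10 fibroblast and progenitor markers 1 rose and 5 fell, and 0 of 15 tested epididymis markers passed in limma, unadjusted or with voom. Of 9 tested T cell markers 0 passed, while 4 were higher at an unadjusted p under 0.05 and 1 with voom on whole reads. No marker on these lists was at 0 reads in every library. The most abundant markers were Lpl (12.96 ± 0.38 in the knockout, 13.04 ± 0.20 in WT) and Fabp4 (13.44 ± 0.32 against 12.40 ± 0.42) for adipocytes and Lyz2 (9.67 ± 0.28 against 12.05 ± 0.12) and Ctss (7.86 ± 0.62 against 10.96 ± 0.09) for macrophages. Those of the other lists changed by 0.92 (Pecam1) and 0.81 (Cdh5) for endothelium and by −1.99 (Col3a1) and −0.28 (Dcn, not called) for fibroblasts. The T cell pair Cd247 (0.98) and Lck (0.76) and the epididymis pair Gpx5 (2.59) and Cuzd1 (2.67) were not called. In bulk tissue, fewer cells of a type and less RNA per cell cannot be told apart. The part of these shifts in the changes of the insulin signalling genes was not tested. The mean change of the adipocyte markers was 2.002, and the changes of the 7 members that rose differed from it by −0.44 (Irs1) to −1.15 (Tbc1d4).

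Insr, the gene of the insulin receptor, stood at 6.26, 6.31, 6.30 and 6.04 in WT replicates 1 to 4. In the knockout it reached 7.16, 7.04, 7.72 and 7.50. The lowest knockout value lay 0.73 above the highest WT value. Insr rose by 1.13 ± 0.16 (SE; limma adjusted p = 0.000639), a 2.18-fold higher level. The SD was 0.13 in WT and 0.31 in the knockout (n = 4 in each group).

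Both docking protein genes rose. Irs1, whose product links the receptor to PI3-kinase and is the main docking protein of fat and muscle, stood at 4.09, 3.85, 4.15 and 3.90 in WT and at 5.37, 4.51, 6.30 and 6.04 in the knockout. Its rise of 1.56 ± 0.34 (adjusted p = 0.00692) was the highest among the members, 2.94-fold. The size varied most between libraries, since knockout replicate 2 stood only 0.36 above the highest WT library while replicate 3 stood 1.79 higher still. Irs2, the docking protein best known from liver and pancreatic beta cells, stood at 3.41, 3.82, 3.60 and 3.16 in WT and at 4.82, 4.76, 5.50 and 4.24 in the knockout. It rose by 1.33 ± 0.26 (adjusted p = 0.00380), 2.52-fold. Irs1 and Irs2 did not rank the knockout libraries alike: replicate 4 was second highest for Irs1 and lowest for Irs2.

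Pik3r1 encodes p85alpha, the regulatory subunit that binds the docking proteins and holds the catalytic subunit of PI3-kinase. Its levels were 7.03, 6.77, 6.93 and 6.74 in WT and 7.83, 7.45, 8.19 and 8.97 in the knockout. Pik3r1 rose by 1.24 ± 0.28 (adjusted p = 0.00790), 2.36-fold. Knockout replicate 4 had the highest value, 1.53 above the lowest knockout library.

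The 2 Akt genes on the list moved in opposite directions. Akt1, the widely expressed form of the kinase, stood at 7.38, 7.43, 7.35 and 7.57 in WT and at 6.81, 6.90, 7.01 and 7.10 in the knockout. It fell by 0.48 on the log2 scale (SE 0.10, adjusted p = 0.00513), 1.39-fold lower. Akt2, the form that serves insulin-stimulated glucose uptake in fat and muscle, stood at 7.22, 7.35, 7.67 and 7.30 in WT and at 8.58, 8.25, 8.75 and 8.20 in the knockout. It rose by 1.06 ± 0.16 (adjusted p = 0.000874), 2.09-fold. Neither gene overlapped between the groups, and the spread of Akt1 was small in both (SD 0.10 and 0.13).

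Both Akt substrates among the members rose. Foxo1, the transcription factor that Akt excludes from the nucleus, stood at 5.26, 5.25, 5.29 and 5.13 in WT and at 6.50, 6.11, 6.72 and 6.50 in the knockout. It had the smallest WT spread of the chain (SD 0.07) and the widest gap between the groups (0.82). Foxo1 rose by 1.22 ± 0.13 (adjusted p = 0.000182), 2.33-fold. Tbc1d4, encoding the Rab GTPase-activating protein AS160 that holds GLUT4 vesicles inside the cell until Akt inhibits it, stood at 5.53, 5.65, 5.82 and 5.37 in WT and at 6.13, 5.98, 6.62 and 7.05 in the knockout. It rose by 0.85 ± 0.22 (adjusted p = 0.0154), 1.81-fold, with the narrowest gap of the 9 members without overlap (0.17). The Tbc1d4 call ended when the class of ribosomal RNA content (over or under 1%) entered the model (0.73, adjusted p = 0.0564).

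The brakes were lower or not called. Ptpn1, encoding the phosphatase PTP1B that removes phosphate from the activated receptor, stood at 6.91, 7.17, 7.03 and 7.11 in WT and at 5.76, 6.18, 6.19 and 6.04 in the knockout. It fell by 1.01 on the log2 scale (SE 0.12, adjusted p = 0.000291), 2.02-fold lower, with a gap of 0.72. Grb14, an adaptor that binds the active receptor and blocks its kinase, stood at 4.84, 4.47, 4.93 and 4.70 in WT and at 4.55, 4.42, 3.996 and 3.42 in the knockout. The groups overlapped through knockout replicate 1 and WT replicate 2. The difference was −0.64 ± 0.24 (adjusted p = 0.0640). It passed without knockout replicate 1 (−0.79, adjusted p = 0.0266), without knockout replicate 2 (−0.75, adjusted p = 0.0499), with array weights (−0.77, adjusted p = 0.0121) and with voom on whole reads and median-ratio size factors (−0.84, adjusted p = 0.0446). With ribosomal RNA class in the model it was −0.40 (adjusted p = 0.233), and without knockout replicate 4 −0.41 (adjusted p = 0.108).

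**Figure D2:**
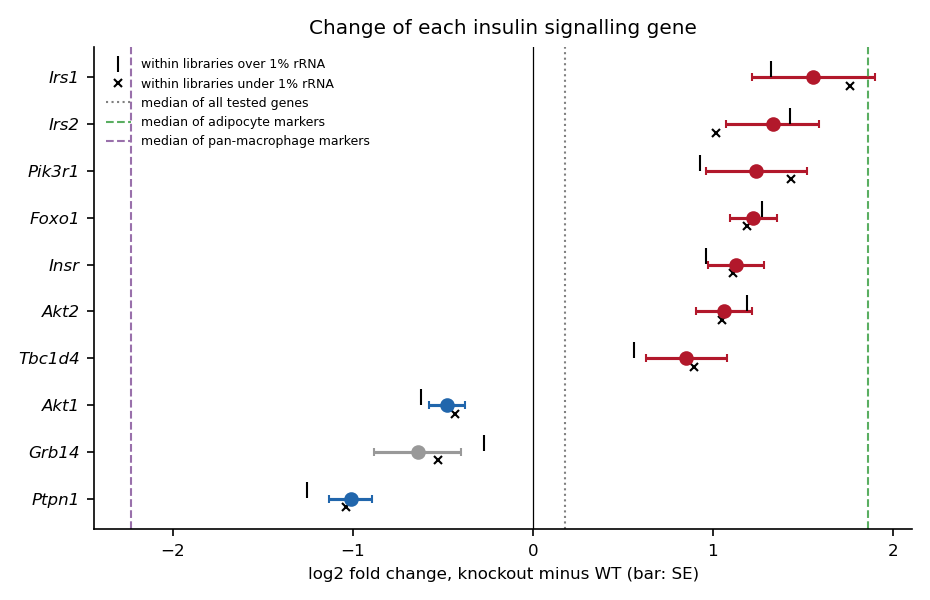
Log2 fold change (knockout minus WT, point) with its SE (bar) for each of the 10 genes, red where higher and blue where lower at an adjusted p under 0.05 and grey where not called; ticks and crosses give the differences within the libraries with over and under 1% ribosomal RNA. The 7 higher genes lie right of the dotted median of all tested genes (0.18) and left of the median of the adipocyte markers (1.86).

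Every member kept its direction within both classes of ribosomal RNA content, although each class holds just 1 library of one of the groups. The classes also differ in read depth, as given above. For the members without overlap between the groups, no split of the libraries could give another direction. With over 1% (3 WT and 1 knockout) the 7 genes that rose differed by 0.56 (Tbc1d4) to 1.43 (Irs2), and with under 1% (1 WT and 3 knockout) by 0.90 (Tbc1d4) to 1.76 (Irs1). Ptpn1 differed by −1.25 and −1.04 and Akt1 by −0.62 and −0.43 in that order. Grb14 differed by −0.27 and −0.53.

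The knockout libraries varied more among themselves than the WT libraries for every member. The SD ran from 0.07 (Foxo1) to 0.28 (Irs2) in WT and from 0.13 (Akt1) to 0.80 (Irs1) in the knockout, and the median ratio of the SDs was 2.52. Over all tested genes the SD was larger in the knockout for 68.3%, with a median ratio of 1.35. Among the knockout libraries, replicate 3 was the highest for 6 members (Insr, Irs1, Irs2, Akt2, Foxo1 and Ptpn1). Replicate 2 was the lowest for 5 (Insr, Irs1, Pik3r1, Foxo1 and Tbc1d4), replicate 4 for 3 (Irs2, Akt2 and Grb14) and replicate 1 for 2 (Akt1 and Ptpn1). The mean log2 level of the adipocyte markers was also highest in replicate 3 (10.71) and lowest in replicate 2 (10.002), with 10.40 and 10.26 in replicates 1 and 4. WT replicate 3 had the highest adipocyte marker mean of its group (8.91, against 8.07 to 8.28) and was the highest WT library for 5 members (Irs1, Akt2, Foxo1, Tbc1d4 and Grb14). WT replicate 2 had the lowest adipocyte marker mean of its group (8.07), yet was the highest WT library for 3 members (Insr, Irs2 and Ptpn1). The part of adipocyte content, read depth or epididymis reads in this spread was not tested.

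To compare levels between genes, CPM was divided by the length in kilobases of the longest coding transcript in GENCODE M21. On this per-kilobase scale (log2 CPM per kilobase) the WT order was Akt1 (6.00 ± 0.10), Akt2 (5.20 ± 0.20), Ptpn1 (4.98 ± 0.11), Pik3r1 (4.04 ± 0.14), Grb14 (3.75 ± 0.20), Insr (3.001 ± 0.13), Tbc1d4 (2.90 ± 0.19), Foxo1 (2.12 ± 0.07), Irs2 (0.84 ± 0.28) and Irs1 (0.80 ± 0.14). Of the 9 neighbours in this order 4 had overlapping ranges, namely Akt2 with Ptpn1, Pik3r1 with Grb14, Insr with Tbc1d4 and Irs2 with Irs1. In the knockout Akt2 came first (6.26 ± 0.26) and Akt1 second (5.53 ± 0.13), with ranges apart. Pik3r1 (5.28 ± 0.65) and Insr (4.13 ± 0.31) followed, and Ptpn1 took the fifth place where it had been the third (3.97 ± 0.20) and Grb14 the eighth where it had been the fifth (3.11 ± 0.51). The docking proteins were lowest in both groups. In the knockout 7 of 9 neighbours overlapped. Other transcripts than the longest would shift a gene's place.

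Differences between a pair of genes within a library do not depend on how that library was scaled, and 9 pairs were compared between the groups by a two-sided exact permutation test. With 70 arrangements the smallest p this design allows is 0.0286, which becomes 0.0429 after Benjamini-Hochberg adjustment over the 9 pairs where reached by 6 of them. These 6 pairs did not overlap between the groups, beside 37.4% of all tested genes taken singly. The share over all possible pairs was not computed, and Insr and Tbc1d4 each enter several pairs. The pairs were chosen with earlier results of these data known. Akt2 minus Akt1 and Ptpn1 minus Insr could not overlap, because their genes lay wholly apart in opposite directions. Nor could Grb14 minus Insr and Foxo1 minus Foxo3. The gaps of Insr and Foxo1 between the groups were wider than the overlaps of Grb14 and Foxo3. The p-values of all these pairs therefore add nothing to the levels of the single genes.

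Akt2 stood level with Akt1 in WT, at −0.16, −0.08, 0.32 and −0.27 log2 units (CPM not divided by length), and 1.77, 1.36, 1.74 and 1.10 above it in the knockout. The shift of 1.54 (2.91-fold; exact permutation p = 0.0286, adjusted p = 0.0429) was thus made of a fall of one form and a rise of the other. Ptpn1 exceeded Insr in every WT library (0.83 ± 0.18) and lay under it in every knockout library (−1.31 ± 0.31), a shift of −2.14 (the Ptpn1 to Insr ratio 4.41-fold lower) with the same p. These levels are CPM not divided by length, which sets where 0 lies but not the shift. Per kilobase, Ptpn1 minus Insr was 1.80 to 2.22 in WT and −0.25, 0.29, −0.38 and −0.31 in knockout replicates 1 to 4, so Ptpn1 still exceeded Insr in replicate 2. Grb14 minus Insr went from −1.49 ± 0.23 to −3.26 ± 0.76, a shift of −1.77 with the same p. Both brakes thus stood lower relative to the receptor transcript in all 4 knockout libraries than in any WT library. Grb14 taken alone was not called (−0.64, limma adjusted p = 0.0640), while Insr rose by 1.13.

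Foxo1 gained 1.65 log2 units on its relative Foxo3 (1.29 ± 0.16 in WT and 2.94 ± 0.67 in the knockout, exact permutation p = 0.0286, adjusted p = 0.0429). As given above, this pair could not overlap, and Foxo3 taken alone was not called. Pik3r1 gained 1.05 on Pik3ca, the gene of the catalytic p110alpha subunit (0.55 ± 0.19 and 1.59 ± 0.54, same p). Tbc1d4 lost 1.80 to Slc2a4, the GLUT4 gene (0.97 ± 0.35 and −0.82 ± 0.23, same p). Its transcript therefore rose while falling behind that of the transporter whose traffic its product restrains. Against Tbc1d1, a related Rab GTPase-activating protein, Tbc1d4 gained 1.24 (−0.40 ± 0.23 and 0.84 ± 0.81; exact permutation p = 0.0571, adjusted p = 0.0735), with knockout replicate 2 (−0.35) inside the WT range. In the 5 libraries with under 1% epididymis reads this gain was 1.65.

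The docking pair and the receptor pair overlapped between the groups and did not pass. Irs1 minus Irs2 was 0.50 ± 0.32 in WT and 0.72 ± 0.84 in the knockout, a shift of 0.22 (exact permutation p = 0.686, adjusted p = 0.771). Insr minus Igf1r, the gene of the related receptor for insulin-like growth factor 1, was 1.68 ± 0.73 and 1.76 ± 0.85, a shift of 0.08 (exact permutation p = 0.886, adjusted p = 0.886). In that pair both replicates 2, which carried the most epididymis reads, were the lowest of their groups, at 0.62 and 0.59. Leaving out the 3 libraries with over 1% of such reads gave a shift of 0.35.

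**Figure D3:**
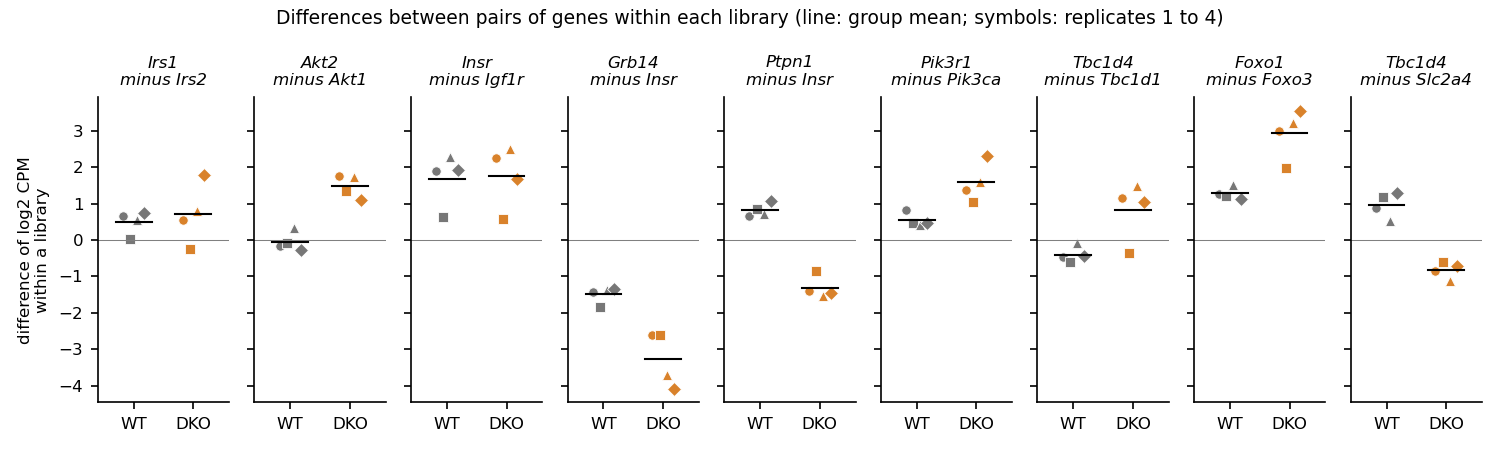
Difference in log2 CPM, not divided by transcript length, between 2 genes within each library for 9 pairs, 4 WT (grey) and 4 knockout (DKO, orange) libraries per panel, with a line at the group mean and symbols for replicates 1 to 4. The groups are apart for 6 pairs, and they overlap for Irs1 minus Irs2, Insr minus Igf1r and Tbc1d4 minus Tbc1d1.

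Of 108 other tested genes in 7 lists of the insulin pathway, 35 rose (32.4%) and 18 fell (16.7%), beside 22.7% and 16.1% of all tested genes. Their median change was 0.21, close to the 0.18 of all genes. The split moved with the processing, to 25 higher and 24 lower after median centring and 24 higher and 28 lower with voom on whole reads and median-ratio size factors. For all tested genes it went from 3137 higher and 2216 lower to 2444 and 2825 after median centring. The genes named next had the smallest p of their list in each direction or belong to a pair.

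Among other receptors and adaptors 5 of 14 rose and 5 fell (median 0.19). Irs3, a further docking protein gene found in rodent fat, rose from 3.86 ± 0.19 to 5.98 ± 0.36, by 2.11 ± 0.19 (adjusted p = 7.4e-05), beside 1.56 for Irs1 and 1.33 for Irs2. Cav1, encoding the caveolar coat protein of fat cells, rose by 1.15 ± 0.22. The lysosomal enzyme receptor gene Igf2r changed by −1.55 ± 0.15 and the adaptor gene Grb2 by −0.95 ± 0.09. Igf1r overlapped between the groups (4.55 ± 0.77 and 5.60 ± 0.68) and did not pass (1.05 ± 0.43, adjusted p = 0.0796). It was highest in each group in the libraries with epididymis reads, and passed without them (0.89, adjusted p = 0.0118). With ribosomal RNA class in the model it was 0.44 (adjusted p = 0.287). Over single libraries left out it ranged from 0.76 (without knockout replicate 2) to 1.43 (without WT replicate 2), and passed without WT replicate 2 or knockout replicate 1.

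Of 13 other PI3-kinase subunits 4 fell and 0 rose in limma (median 0.10, but −0.04 after median centring). At an unadjusted p under 0.05, 3 were higher and 5 lower, and with voom on whole reads 0 were higher. Pik3cg and Pik3r5, the catalytic and regulatory subunits of the leukocyte form PI3-kinase gamma, changed by −1.98 ± 0.12 and −1.996 ± 0.19. The other genes that fell, named after their values were seen, were the leukocyte subunit Pik3cd (−1.38 ± 0.15) and the leukocyte adaptor Pik3ap1 (−2.72 ± 0.29). These fell beside the pan-macrophage markers, whose median was −2.23, and the part of those cells was not tested. Pik3ca, the catalytic partner of p85alpha, stood at 6.32 ± 0.13 and 6.52 ± 0.12 (0.20 ± 0.10, adjusted p = 0.155).

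Of 16 genes of PDK1 and the mTOR complexes 7 rose and 0 fell in limma (median 0.38), while at an unadjusted p under 0.05, 8 were higher and 1 lower. With voom on whole reads and median-ratio size factors 2 rose and 1 fell, and after median centring 4 rose and 1 fell. The translation repressor gene Eif4ebp1 rose by 1.56 ± 0.19 and Prr5, an mTOR complex 2 subunit, by 1.58 ± 0.33.

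Of 23 further brakes 8 rose and 2 fell (median 0.30), while the brake Ptpn1 fell. After quantile normalization 4 rose and 3 fell, with a median of −0.01. Ptpn11, the phosphatase SHP2 that binds docking proteins, rose by 0.71 ± 0.10 and Phlpp2, an Akt phosphatase, by 0.62 ± 0.12. The receptor-type phosphatase gene Ptpra changed by −0.77 ± 0.09. Inpp5d, the lipid phosphatase SHIP1 of blood cells, changed by −1.31 ± 0.33.

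Of 18 genes of GLUT4 traffic 6 rose and 4 fell (median 0.13, but −0.02 after median centring and −0.07 with voom on whole reads and median-ratio size factors). Slc2a4 stood at 4.64, 4.47, 5.30 and 4.07 in WT and at 6.98, 6.58, 7.76 and 7.76 in the knockout. It rose by 2.65 ± 0.33 (adjusted p = 0.000371). Myo1c, a motor protein of GLUT4 vesicles, rose by 0.93 ± 0.14. Tbc1d1 did not pass (−0.39 ± 0.29, adjusted p = 0.313), but did without the libraries with over 1% epididymis reads (−0.85, adjusted p = 0.0046). It was −0.17 without knockout replicate 1 (adjusted p = 0.604), −0.23 without knockout replicate 3 and −0.63 without knockout replicate 2. Among fusion proteins Stxbp3 changed by −0.73 ± 0.13 and Snap23 by −0.47 ± 0.12. Snap23 lost its call without the libraries with over 1% epididymis reads (−0.42, adjusted p = 0.107).

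Of 10 other Akt substrates and effectors 4 rose and 1 fell (median 0.08, and −0.07 after median centring). The glycogen synthase gene Gys1 rose by 1.53 ± 0.21 and Foxo4 by 0.87 ± 0.11, while the ubiquitin ligase gene Mdm2 changed by −0.45 ± 0.10. Foxo3 did not pass (−0.43 ± 0.23, adjusted p = 0.167), but did without knockout replicate 2 (−0.63, adjusted p = 0.0306). Without knockout replicate 4 it was −0.24 (adjusted p = 0.365). Of 14 genes known as FoxO targets 5 rose and 2 fell (median 0.26). Pck1, an enzyme of glyceroneogenesis in fat, rose by 3.41 ± 0.32 and the lipase gene Pnpla2 by 2.02 ± 0.22. Sesn1 and Fbxo32, a stress response gene and a ubiquitin ligase gene, changed by −0.91 ± 0.10 and −0.87 ± 0.22. Pnpla2 is also on the adipocyte list.

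**Figure D4:**
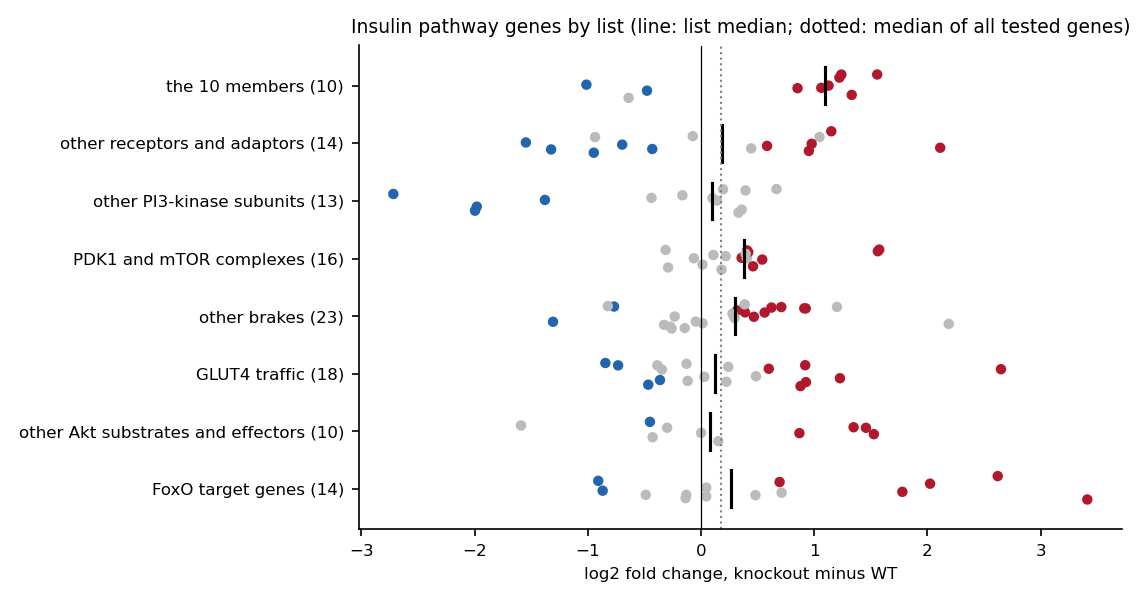
Log2 fold change (knockout minus WT) of the 10 members and of the tested genes of 7 other insulin pathway lists, 1 point per gene, red where higher, blue where lower and grey where not called at an adjusted p under 0.05; black lines are list medians and the number tested is in brackets. The median of the members lies at 1.10, those of the other lists between 0.08 and 0.38, near the dotted median of all tested genes.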

How the data were processed

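Polyadenylated RNA of 8 fat samples was sequenced as 75-base single reads from a stranded library kit, per the labels' protocols. The submitters' processing notes name Trimmomatic, TopHat2, featureCounts and limma with the build mm9. Versions and counting options were not given in the sources used here. Deposited by the authors were voom log2 CPM values, which match 0.5 added to each count and 1 to each total: 100% of values gave whole reads within 0.01.

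Genes with a mean log2 CPM of at least 0 (13797) were fitted with limma 3.58.1 (R 4.3.3; lmFit, eBayes with a trend, group as the only term, Benjamini-Hochberg over all tested genes, threshold 0.05). The fit was first tested on simulated reads. Members, lists, pairs and alternatives were chosen with earlier results of these data known. All members were to be named, with up to 2 genes per direction and pathway list, the 2 most abundant genes of each marker list, and the genes of the pairs. Pairs within libraries were compared by exact permutation. Alternatives changed the pseudocount, filter, scaling, variance model, depth, covariate or libraries. Irs4 was not found in the table, and 1 pathway gene is not reported here. Plots used matplotlib 3.10.9.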

Additional observations from a re-analysis of the deposited data

Results flagged for a closer look

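Within each group of 4, the highest or lowest library was compared with the others for 58 measures (members, pairs and other named genes), 116 tests in all. A library stood apart in 6 of them, where chance gives about 1 in 20. Grb14 minus Insr was −1.83 in WT replicate 2, against −1.42 to −1.34 in the other WT libraries. Pik3r1 minus Pik3ca was 0.83 in WT replicate 1, against 0.43 to 0.47. Cav1 stood at 11.61 in knockout replicate 1, against 11.18 to 11.25 in the other knockout libraries, and Prr5 at 5.61 in knockout replicate 2, against 4.90 to 4.94. Sesn1 stood at 6.73 in WT replicate 3, against 6.98 to 6.99. The endothelial marker Cdh5 stood at 7.23 in knockout replicate 4, against 7.73 to 7.83. No member level taken alone was set apart in this way.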

How the results depend on the processing

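Over 22 alternatives the 10 members kept their direction, but many of these could not change it. The filters, the fit without a trend, the robust fit and the replicate block left each difference as it was. Leaving out or weighting libraries, or changing the pseudocount, cannot reverse a member whose groups do not overlap. Calls changed for Tbc1d4 and Grb14 alone, as given above. The members called higher numbered 7, or 6 with ribosomal RNA class in the model, and those called lower 2 or 3. The other pathway genes called lower went from 18 to 28 with voom on whole reads and median-ratio size factors. Under 11 alternatives 7 pairs kept the sign of their shift, while Irs1 minus Irs2 ranged from −0.13 to 0.55 and Insr minus Igf1r from −0.27 to 0.47. For the pairs without overlap, leaving out libraries could not change the sign. Whether the replicate numbers pair the animals cannot be told from these values. Deviations of same-numbered samples correlated at 0.36, 0.79, 0.24 and −0.36, and not every sample correlated best with its own number. WT replicate 2 correlated at 0.79 and 0.54 with knockout replicates 2 and 4, which like it carried over 1% epididymis reads. With the replicate block 37 other pathway genes were higher and 20 lower. Over all genes 3232 were then higher and 2136 lower, and 7 members were higher and 2 lower. Members with a seed match numbered 3 where a following A was required and 7 for 6 bases, against 6.15% and 36.5% of tested genes with a 3′ UTR. The 3′ UTRs of the members were longer than usual, as given above. Of 39 other named genes, 10 changed call or sign somewhere. Fabp4 lost its call in 11 settings. Lpl, never called, changed sign without the libraries with over 1% epididymis reads (0.12), with ribosomal RNA class in the model (0.15), and ranged from −0.25 to 0.049 over single libraries left out. The epididymis marker Gpx5 changed sign with voom on whole reads (−0.062), without those libraries (−0.094) and with that class (−2.27), as did Cuzd1 with the class (−0.37). Fold changes of the members rest on at least 43 reads per library, and 4 animals per group limit the precision.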
